A study of Mus musculus with 3 samples.

Results

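The genes described here are 8 members of the ETS family of transcription factors, Spi1, Spib, Ets1, Erg, Fli1, Etv6, Elf1 and Gabpa, chosen as a list of symbols out of 27998 genes in each count table. All 8 were found, and each had transcripts in every library. They were measured in 3 cell populations sorted from bone marrow, all from the mouse strain C57BL/6J, in the order in which B cell development passes through them. Lymphoid-primed multipotent progenitors (LMPP), which can still form myeloid and lymphoid cells, carried cKit, Sca1 and Flt3 and lacked IL7Ra and B220. The gate for common lymphoid progenitors (CLP) asked for cKit, Sca1 and IL7Ra without B220 and took cells with or without Flt3. Pro-B cells, the first committed stage of the B lineage, carried cKit, IL7Ra and B220 and lacked Sca1 and Flt3. No allele, transgene or treatment is labelled for these mice, and the sources used here do not give their age, number or any pooling.

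ETS proteins share a DNA-binding domain that recognises a GGAA core, and family members compete for many of the same sites, so which of them a cell expresses, and how much, bears on which genes are used. In blood formation Spi1, which encodes PU.1, is the best known of them: high amounts favour macrophage and granulocyte fates, and lower amounts are compatible with B cell development. Spib is a close relative of it and is used in B cells and plasmacytoid dendritic cells. Erg and Fli1 belong to a set of factors that maintain stem cells, and Ets1 is used in lymphocytes, where it binds together with Pax5.

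Each population was 1 droplet library, so differences between populations have no replicate check and none was tested. The libraries held 579 LMPP, 948 CLP and 1106 pro-B cells after filtering, with between 4014657 and 7367156 unique molecular identifiers (UMIs, tags that each mark 1 captured transcript) per library and medians of 6789, 6258.5 and 5687.5 UMIs per cell. Il7r and Flt3, whose proteins were used in the sort, stood at 3.74 and 279 CPM in LMPP, 141 and 300.5 CPM in CLP, and 104 and 5.16 CPM in pro-B, low where the gate left the protein out. Between 1 and 3 barcode sequences were shared by any pair of libraries. Levels are UMIs summed over a library and scaled to 1000000 (CPM), and a level is not compared between genes. Ranges in parentheses are 95% intervals for counting error alone.

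Spi1 stood at 193 CPM in LMPP (179 to 207), 108 CPM in CLP (100.1 to 117) and 46.4 CPM in pro-B cells (41.6 to 51.6). The intervals do not overlap, and the order of the levels is LMPP, CLP, pro-B. On the log2 scale Spi1 was 0.83 lower in CLP than in LMPP (log2 ratio −0.83, −0.98 to −0.68) and lower again in pro-B than in CLP (−1.22, −1.41 to −1.03). Spi1 transcripts were still present at the pro-B stage: 342 UMIs came from 272 of 1106 pro-B cells, with at most 3 in any of them. After every cell was thinned to 2000 UMIs, which removes differences in depth, 32.3% of LMPP (28.5 to 36.3), 19.8% of CLP (17.3 to 22.6) and 8.88% of pro-B cells (7.24 to 10.7) had a Spi1 UMI. Before thinning these shares were 71.3%, 43.1% and 24.6%. The number of thinned cells with 3 or more Spi1 UMIs was 5 for LMPP, 2 for CLP and 0 for pro-B. For comparison, a small innate lymphoid-like cluster in the CLP library, a cell type not known for Spi1, held 1 Spi1 UMI in 17 cells (12.2 CPM, 0.309 to 68.0), and 1 of its 15 thinned cells (6.67%, 0.169 to 31.9) had one, at a median of 5131 UMIs. All CLP outside that cluster and the dendritic-like one had a Spi1 UMI in 20.4% of thinned cells at a median of 6336.5 UMIs. The upper bound in the small cluster lies above every population's share apart from that of LMPP, so at this number of cells it sets no background for Spi1.

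Spib had 0.996 CPM in LMPP, from 4 UMIs, 7.04 CPM in CLP (5.07 to 9.51), from 42 UMIs, and 57.8 CPM in pro-B cells (52.5 to 63.6), from 426 UMIs. It was thus lowest where Spi1 was highest. The log2 ratio of pro-B over CLP was 3.04 (2.58 to 3.53), while that of CLP over LMPP, 2.82 (1.36 to 4.76), rests on few UMIs. Most of the CLP signal came from 1 cluster: 31 of the 42 UMIs lay in 71 cells named plasmacytoid dendritic-like for Siglech and other markers of that type, at 55.9 CPM (37.9 to 79.3), against 2.06 CPM (1.03 to 3.69) in CLP outside the dendritic-like and innate-like clusters. Without these clusters the log2 ratio of Spib was 1.99 (CLP over LMPP) and 4.81 (pro-B over CLP). The 1.99 rests on 11 UMIs in CLP and 2 UMIs in LMPP (0.519 CPM, 0.0629 to 1.88), so its size is not fixed. Another 2 of the 4 LMPP UMIs lay in 20 dendritic-like LMPP cells. Siglech itself stood at 353 CPM in the dendritic-like CLP and 19.1 CPM in those other CLP, and at 0 UMIs in all groups of pro-B cells described below. In thinned cells 0.175% of LMPP (0.00442 to 0.968), 1.10% of CLP (0.529 to 2.02) and 13.8% of pro-B (11.8 to 16.0) had a Spib UMI.

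Ets1 had 8.97 CPM in LMPP (6.28 to 12.4), 43.4 CPM in CLP (38.3 to 49.0) and 96.4 CPM in pro-B cells (89.4 to 104). The order is the reverse of that of Spi1, and here too no intervals overlap. Its log2 ratio of CLP over LMPP was 2.28 (1.77 to 2.82), and that of pro-B over CLP 1.15 (0.94 to 1.36). Ribosomal protein and mitochondrial transcripts took a smaller share of the pro-B library, and when they are left out of the total every log2 ratio of pro-B over CLP moves by −0.31. Ets1 then stands at 0.84, under 2-fold. Shares of thinned cells with an Ets1 UMI were 2.27% in LMPP (1.21 to 3.85), 10.0% in CLP (8.15 to 12.2) and 21.0% in pro-B (18.6 to 23.6). No population in these data is known to lack Ets1, so its background cannot be read here, and the LMPP share is the lowest seen.

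Etv6, which encodes a repressor needed by stem cells in adult bone marrow, went the way of Spi1. It had 87.4 CPM in LMPP (78.5 to 97.1), 66.4 CPM in CLP (60.0 to 73.2) and 25.2 CPM in pro-B cells (21.7 to 29.1). The step from CLP was the larger one: its log2 ratio of CLP over LMPP was −0.40 (−0.61 to −0.19), and that of pro-B over CLP −1.39 (−1.65 to −1.14). In thinned cells 17.8% of LMPP, 13.7% of CLP and 5.79% of pro-B had an Etv6 UMI.

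Erg and Fli1, close relatives that belong to the same stem cell set, parted at the pro-B stage. Erg had 42.1 CPM in LMPP (36.0 to 48.9), 49.1 CPM in CLP (43.6 to 55.1) and 89.6 CPM in pro-B cells (82.9 to 96.7). LMPP and CLP do not differ in Erg beyond their intervals (log2 ratio 0.22, −0.06 to 0.50), whereas pro-B cells stood above both. The ratio of pro-B over CLP, 0.87 (0.67 to 1.07), is 1.25 when every cell weighs the same and 0.56 when ribosomal and mitochondrial genes are left out of the total. Fli1 had 50.3 CPM in LMPP (43.6 to 57.8), 55.5 CPM in CLP (49.7 to 61.8) and 46.4 CPM in pro-B cells (41.6 to 51.6). All neighbouring intervals of Fli1 overlap, and its largest log2 ratio between populations, −0.26 for pro-B over CLP, has an upper bound of −0.03. Thinned shares gave the same picture, with 7.85%, 8.59% and 18.7% of cells for Erg and 10.5%, 12.2% and 9.44% for Fli1 in LMPP, CLP and pro-B. Leaving ribosomal and mitochondrial genes out of the total moves the Fli1 ratio of pro-B by −0.31 against CLP and −0.34 against LMPP. Both ratios then lie further below 0. As UMIs per cell in cells with few cycle transcripts, described below, they were −0.85 and −0.80. How level Fli1 is at the pro-B stage thus depends on the scaling and the unit.

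Elf1, a factor used in lymphocytes, was highest in the middle stage. Its levels were 138 CPM in LMPP (127 to 150.2), 193 CPM in CLP (182 to 205) and 132 CPM in pro-B cells (124 to 141), so that LMPP and pro-B do not differ beyond their intervals (log2 ratio −0.07, −0.22 to 0.09). CLP stood above LMPP by a log2 ratio of 0.48 (0.34 to 0.63), and pro-B below CLP at −0.55 (−0.67 to −0.42). Gabpa, the DNA-binding subunit of GA-binding protein, had 9.22 CPM in LMPP (6.49 to 12.7), 12.6 CPM in CLP (9.89 to 15.8) and 18.1 CPM in pro-B cells (15.1 to 21.4). Its log2 ratio was 0.45 for CLP over LMPP (−0.14 to 1.06), 0.52 for pro-B over CLP (0.10 to 0.95) and 0.97 for pro-B over LMPP (0.43 to 1.54), so that the intervals of both ratios with pro-B leave 0 out. Without ribosomal and mitochondrial genes in the total, these 2 ratios move by −0.31 and −0.34. The Gabpa interval of pro-B over CLP then holds 0, and the Elf1 interval of pro-B over LMPP lies below 0.

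**Figure D1:**
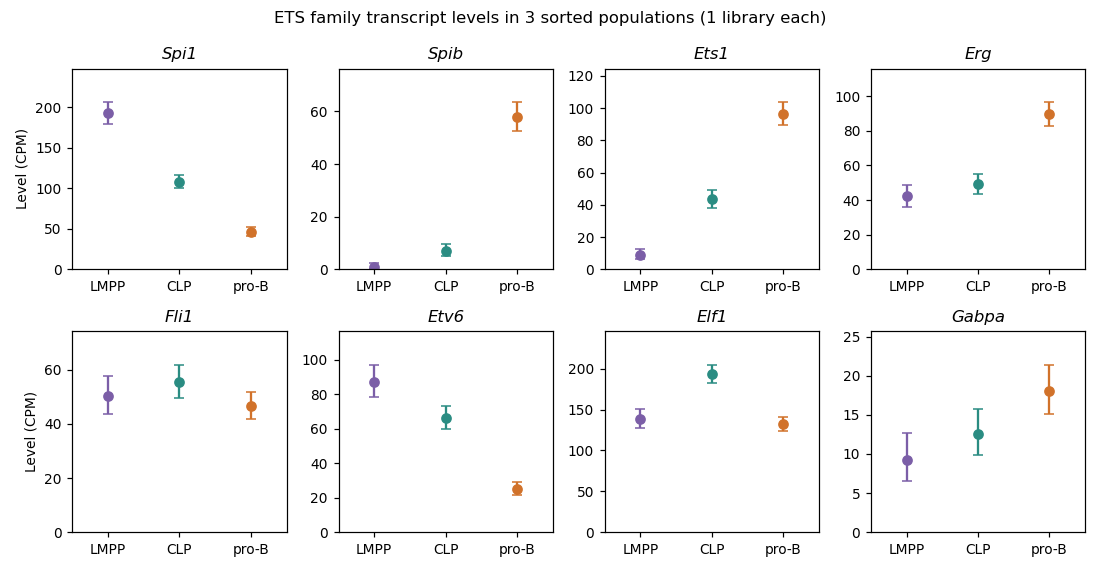
Levels of the 8 ETS family genes in counts per 1000000 UMIs (CPM, linear axis from 0) in LMPP, CLP and pro-B cells, 1 library each. Points are levels and bars 95% Poisson intervals for counting error. Spi1 and Etv6 are highest in LMPP, Spib, Ets1, Erg and Gabpa in pro-B (57.8, 96.4, 89.6 and 18.1 CPM), Elf1 peaks in CLP at 193 CPM and Fli1 stays between 46.4 and 55.5 CPM.

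A gene was counted as different when its levels were at least 2-fold apart and the higher one was 10 CPM or more. In CLP against LMPP, 7 of the 8 genes reached 10 CPM, of which 1 was higher in CLP (Ets1) and 0 were lower. Of all 7747 genes tested in that comparison 4.36% were higher and 3.59% lower. In pro-B against CLP, 2 of 8 were higher (Spib and Ets1) and 2 lower (Spi1 and Etv6), where 13.9% of all 7867 genes were higher and 13.6% lower. In pro-B against LMPP, 3 of 8 were higher (Spib, Ets1 and Erg) and 2 lower (Spi1 and Etv6), where 14.7% of all 7995 genes were higher and 14.7% lower. Such counts over 8 genes were not tested against the background, and nothing about the family is read from them. Members stood on both sides of 0 in each comparison, and the median log2 ratio of the 8 was 0.33, 0.13 and 0.45 in the 3 comparisons, beside −0.01, 0.06 and 0.07 over all genes tested. For pro-B over CLP that median is −0.18 without ribosomal and mitochondrial genes in the total, so its sign depends on the scaling. With that scaling 1 gene was higher and 2 lower in pro-B against CLP, and 2 higher and 2 lower in pro-B against LMPP, where Erg came to 0.75. Over all genes, too, that scaling gave fewer higher and more lower genes in both comparisons, as given in the last section. These member counts are therefore not read against the shares above. Between pro-B and LMPP the log2 ratios of the members called were 5.86 for Spib (4.49 to 7.74), 3.43 for Ets1 (2.94 to 3.95), 1.09 for Erg (0.84 to 1.34), −1.79 for Etv6 (−2.06 to −1.53) and −2.05 for Spi1 (−2.24 to −1.87). Gabpa joins them at 1.08 when cells of the dendritic-like and innate-like clusters are left out. Any pair of these comparisons has a library in common.

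**Figure D2:**
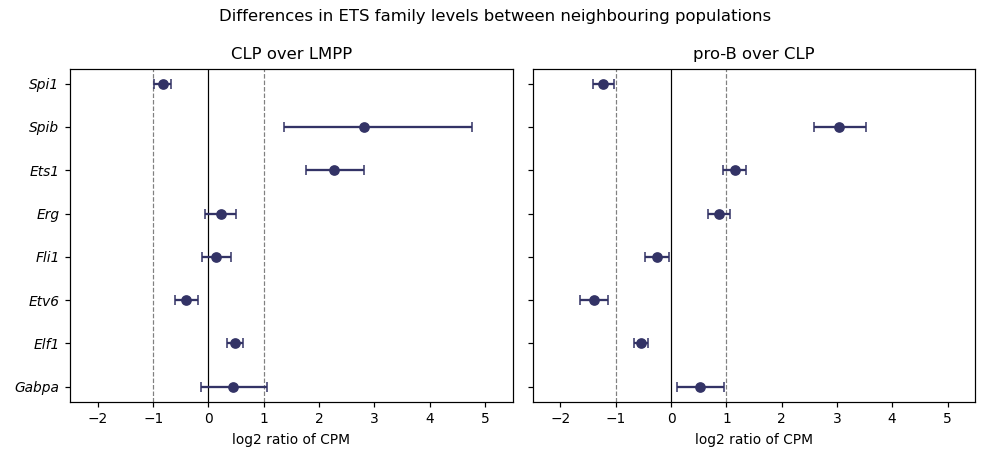
Log2 ratios of CPM for the 8 genes, with CLP over LMPP on the left and pro-B over CLP on the right. Points are ratios, bars are 95% intervals for counting error, and dashed lines mark 2-fold. Spi1 and Etv6 lie left of 0 in both panels (Spi1 −0.83 and −1.22, Etv6 −0.40 and −1.39), Spib and Ets1 right of it in both, and Elf1 changes side (0.48 and −0.55).

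Promoter sequences were at hand for 5 of the 8 genes, from RefSeq on GRCm38.p6, each running from 250 bases before to 50 bases after an annotated start. Spib and Etv6 are shown, because they stand for the 2 opposite directions at the pro-B stage and their promoters hold few and many ETS cores. Capitals mark GGAA or, for a core on the other strand, TTCC.
Spib, chr7:44532022-44532321, minus strand: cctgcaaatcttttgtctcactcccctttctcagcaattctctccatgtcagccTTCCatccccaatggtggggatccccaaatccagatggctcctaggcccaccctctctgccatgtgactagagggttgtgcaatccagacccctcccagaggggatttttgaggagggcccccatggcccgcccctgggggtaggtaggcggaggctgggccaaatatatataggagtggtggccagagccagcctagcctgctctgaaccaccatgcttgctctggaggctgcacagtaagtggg
Etv6, chr6:134035450-134035749, plus strand: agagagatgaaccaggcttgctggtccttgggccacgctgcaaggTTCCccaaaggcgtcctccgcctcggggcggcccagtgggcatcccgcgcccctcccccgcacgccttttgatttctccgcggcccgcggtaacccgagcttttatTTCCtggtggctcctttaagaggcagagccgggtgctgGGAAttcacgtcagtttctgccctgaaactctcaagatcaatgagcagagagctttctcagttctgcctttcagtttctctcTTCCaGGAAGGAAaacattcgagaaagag
The Spib sequence holds 1 core, as do 1 promoter of Elf1 and 1 of Erg, and the Etv6 sequence 6, of which a pair are back to back. The promoter of Gabpa, a gene highest in pro-B like Spib, holds 5, and the other promoters of Erg hold 4 and 2. No link between cores and direction is read from the pair shown. A core of 4 letters is common: 96.0% of 32851 mouse promoters of this length hold at least 1 on either strand, with a median of 3, and so did all 8 promoters of Spib, Etv6, Elf1, Gabpa and Erg. The longer form CCGGAAGT, searched on both strands and containing the core, was in 3.89% of promoters and in 0 of these 8. A match describes letters and is not a bound site.

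The genes lie on 6 chromosomes (GRCm38, GENCODE M21 annotation). Spi1 is at chr2:91082390-91115756, Spib at chr7:44525993-44532071, Etv6 at chr6:134035700-134270158, Elf1 at chr14:79481194-79582494, and Gabpa at chr16:84834925-84863779. Ets1 at chr9:32636221-32757820 and Fli1 at chr9:32422204-32542861 are neighbours on opposite strands with 93360 bp between them. Ets1 was 10.7-fold higher in pro-B than in LMPP, and Fli1 1.08-fold lower. Erg, at chr16:95359169-95586593, has Ets2 as its neighbour at 115482 bp, on the other strand, and Ets2 stood between 5.02 and 5.98 CPM in all 3 libraries. No gene overlapping any of the 8 covers its 3' end, where this chemistry reads.

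Within the LMPP library, cells were grouped by genes outside the family: 340 had 2 or more UMIs of the granule genes Mpo, Prtn3, Elane and Ctsg, 121 others had 2 or more UMIs of Dntt, the template-free polymerase of early lymphocytes, and 118 had neither. Granule genes were gated first, so cells with both kinds of transcript fell in the granule group. That group had 298 CPM of Dntt, against 983 CPM in the Dntt group. It also held 24 of the 30 LMPP cells called doublets. The groups are thus no clean split of myeloid from lymphoid cells. Spi1 was nearly level across the groups, at 198 CPM in cells with granule transcripts (181 to 216), 178 CPM in cells with Dntt (150.5 to 209) and 190 CPM in cells with neither (157 to 227). Ets1 was not: it had 6.23 CPM in cells with granule transcripts (3.56 to 10.1), against 19.2 CPM in cells with Dntt (11.0 to 31.3), a log2 ratio of −1.63 (−2.72 to −0.53) from 16 UMIs in each. Erg was highest in cells with neither, at 66.5 CPM (47.7 to 90.2) from 41 UMIs. It had 39.7 CPM in cells with granule transcripts (32.4 to 48.2) and 31.3 CPM in cells with Dntt (20.4 to 45.8). The intervals of cells with neither and cells with granule transcripts overlap. These groups had median depths of 7401.5, 6675 and 5071 UMIs per cell for granule, Dntt and neither.

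CLP were ordered by early B lineage genes into 174 cells without Ebf1, Ly6d or Pax5, 232 with Ly6d only, 463 with Ebf1 but no Pax5, and 79 with Pax5, the factor that commits cells to the B lineage. The medians along this order were 4860, 6999, 6346 and 6162 UMIs per cell, and 1 UMI sufficed to place a cell, so depth bears on the grouping. When cells were thinned before they were grouped, the levels of 2 members moved in cells with Ebf1 but no Pax5. In cells with Pax5 the level of 1 member moved. Along the order Spi1 had 128, 102, 108 and 90.6 CPM. Cells with Pax5 stood below cells without any of these genes by a log2 ratio of −0.50, with an interval that only just leaves 0 out (−1.01 to −0.01). Erg had 39.2, 38.0, 52.1 and 83.0 CPM, so that its higher level was already present in CLP with Pax5 (log2 ratio over cells without any of these genes 1.08, 0.42 to 1.76). Etv6, low in pro-B cells, was not low in CLP with Pax5: it had 59.3, 54.5, 70.7 and 90.6 CPM along the order (log2 ratio 0.61, 0.02 to 1.19, and 0.59, −0.01 to 1.18, in cells of the other clusters). Ets1 had 40.2, 27.3, 50.1 and 60.4 CPM, with a log2 ratio of 0.59 (−0.14 to 1.30) for cells with Pax5 over cells without any of these genes. The innate lymphoid-like cluster weighs on that value, since its 17 cells had 220 CPM of Ets1 (130.3 to 347) from 18 UMIs. Without it and the dendritic-like cluster the log2 ratio of Ets1 was 1.04 (0.24 to 1.85). Spib had 19.0 CPM in cells with Ly6d only, of which 61 of 232 were dendritic-like or innate-like, and 1 UMI without those. The Siglech level of the 4 groups was 20.1, 126, 25.7 and 9.44 CPM. Apart from this order, 278 CLP with an Mpo transcript had 113 CPM of Spi1, against 105 CPM in the 670 without (log2 ratio 0.11, −0.13 to 0.34), a difference within counting error.

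**Figure D3:**
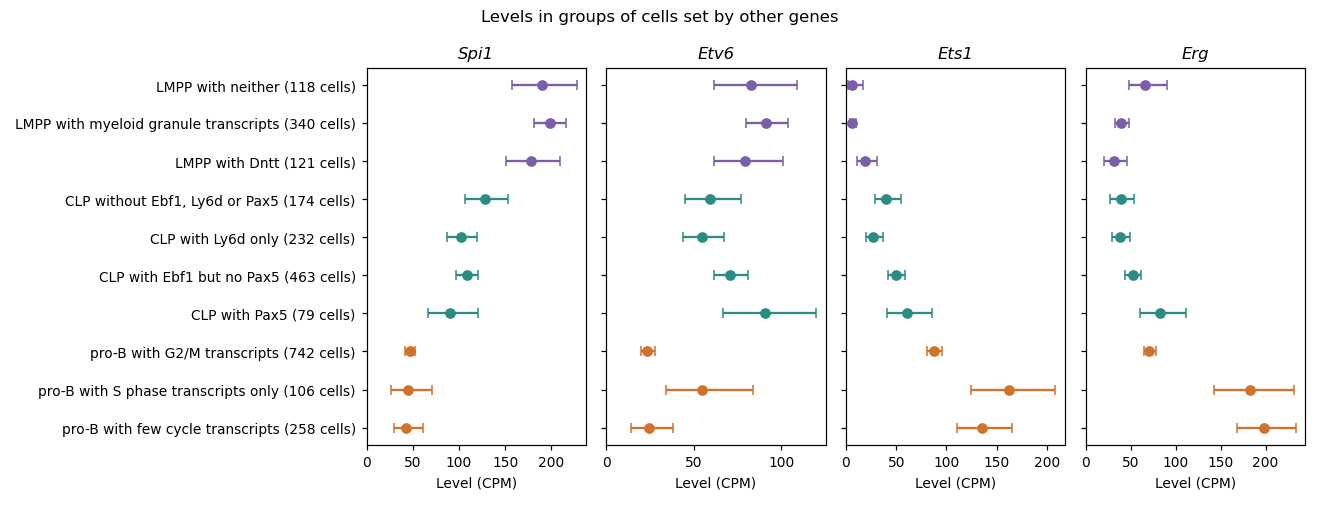
Levels of Spi1, Etv6, Ets1 and Erg in CPM (linear axes from 0) in groups of LMPP, CLP and pro-B cells set by genes outside the ETS family, with the number of cells. Points are levels and bars 95% Poisson intervals. Within CLP, Erg stands at 83.0 CPM in cells with Pax5, against 39.2 CPM in cells without Ebf1, Ly6d or Pax5. Pro-B groups lie between 70.8 and 199 CPM in Erg.

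Pro-B cells were grouped by cell cycle genes into 742 with 3 or more UMIs of G2/M genes, 106 with S phase genes only and 258 with few of either. Cells with both G2/M and S phase transcripts fell in the first group, so it is not a count of cells in G2/M. Among the pro-B clusters described below, the G2/M-like one held 198 cells and the S phase-like ones 190 and 266. Depth moved with the groups set by cell cycle genes: the medians were 7740, 3237 and 2682 UMIs per cell. The median log2 ratio of cells with G2/M transcripts over cells with few cycle transcripts was −0.22 across all 7688 genes tested. By the 2-fold rule 0 of the 8 members were higher and 2 lower (Spib and Erg), where 11% of those genes were higher and 18% lower. Erg had 70.8 CPM (64.4 to 77.8) in cells with G2/M transcripts, against 199 CPM (168 to 233) in cells with few, a log2 ratio of −1.49 (−1.76 to −1.21). The log2 ratio was −1.37 for Spib (−1.72 to −1.02), −0.88 for Elf1 (−1.12 to −0.62) and −0.63 for Ets1 (−0.94 to −0.31). That of the other 4 members lay between −0.43 (Fli1) and 0.13 (Spi1), with intervals that hold 0. Counted per cell the picture is another one: a cell with G2/M transcripts held 0.596 Erg UMIs on average, against 0.574 in a cell with few cycle transcripts, and the values for Spib were 0.392 and 0.349. Ets1 and Elf1 were higher per cell in cells with G2/M transcripts, at 0.737 and 1.01 UMIs, against 0.391 and 0.636 UMIs in cells with few. Spi1 went with the total: it had 47.0 CPM in cells with G2/M transcripts (0.395 UMIs per cell) and 43.0 CPM in cells with few (0.124 UMIs per cell). The group with S phase transcripts only depends on depth at the gate, with 183 CPM of Erg as drawn and 70.1 CPM when cells were thinned before they were grouped.

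**Figure D4:**
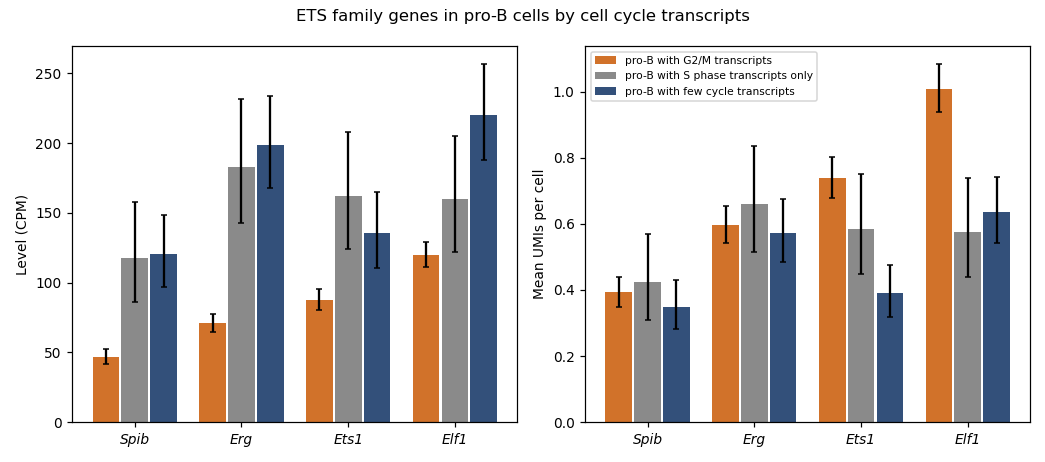
Spib, Erg, Ets1 and Elf1 in pro-B cells with G2/M transcripts (742 cells), S phase transcripts only (106) and few cycle transcripts (258), as CPM on the left and mean UMIs per cell on the right, both axes from 0. Bars are levels and lines 95% Poisson intervals. Erg differs in CPM (70.8 in cells with G2/M transcripts, 199 in cells with few) and hardly in UMIs per cell (0.596 and 0.574).

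Because the populations hold different shares of cells with few cycle transcripts, 41.5% of LMPP, 38.5% of CLP and 23.3% of pro-B cells, the populations were also compared within such cells. Their depth differed, with medians of 5552.5 UMIs per cell (LMPP), 4020 UMIs (CLP) and 2682 UMIs (pro-B), so each ratio of CPM is given with that of UMIs per cell. Spi1 and Etv6 were lower there in pro-B than in CLP too, with log2 ratios of −1.64 and −1.68 as CPM and −2.28 and −2.32 per cell. Erg and Ets1 stood above their CLP levels in these pro-B cells, by log2 ratios of 1.72 and 1.41 as CPM and 1.08 and 0.77 per cell, from 148 and 101 UMIs in pro-B. Spib had 90 UMIs in these pro-B cells, against 4 in CLP and 1 in LMPP. For Elf1, Fli1 and Gabpa the reading depends on the unit. The Elf1 log2 ratio of pro-B over CLP was 0.0017 as CPM, which is level, and −0.64 per cell in these cells, and −0.55 as CPM in all cells. That of pro-B over LMPP was 0.58 as CPM and −0.36 per cell in these cells, and −0.07 as CPM in all. Fli1 had −0.21 as CPM and −0.85 per cell for pro-B over CLP, and 0.14 and −0.80 for pro-B over LMPP. Gabpa had 0.65 as CPM and 0.015 per cell for pro-B over CLP, and 1.74 and 0.80 for pro-B over LMPP. These Gabpa values rest on 15 UMIs in pro-B, 21 in CLP and 8 in LMPP, so their size is not fixed.

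Clusters drawn in each library without any ETS gene among the variable genes showed how even each member was within a population. Over the 15 clusters of 30 or more cells, Spi1 ranged from 170 to 223 CPM in LMPP, 86.5 to 133 CPM in CLP and 34.1 to 52.6 CPM in pro-B. Ets1 ranged from 5.77 to 14.8 CPM in LMPP, 23.4 to 65.0 CPM in CLP and 71.4 to 160.1 CPM in pro-B, and Etv6 from 78.8 to 106 CPM, 46.5 to 87.1 CPM and 14.6 to 30.4 CPM. The ranges of the Spi1 and Ets1 levels over these clusters do not overlap between libraries, and those of Etv6 do between LMPP and CLP. Counting intervals of the nearest clusters do overlap for Spi1 and Ets1. The highest CLP cluster had 65.0 CPM of Ets1 (40.3 to 99.4) from 21 UMIs, and the lowest pro-B cluster 71.4 CPM (59.6 to 84.9). For Spi1 the highest CLP cluster had 133 CPM (96.4 to 179) and the lowest LMPP cluster 170 CPM (147 to 195). Erg was uneven in pro-B, with 207 CPM (244 UMIs) in a cluster of 398 cells with low depth (median 2804 UMIs), and 7.30 CPM (6 UMIs) in a cluster of 54 cells with high depth (median 14945 UMIs) led by Mt1, Srm, Nrgn, Ccnd2 and Myc. Here the difference is also there per cell, at 0.613 and 0.111 Erg UMIs. Spib had 136 CPM in the low-depth cluster and 17.0 CPM in the other (0.405 and 0.259 UMIs per cell). Neither cluster could be named from the markers, and the high-depth one held 0 cells called doublets. The part of depth in these differences was not tested.

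**Figure D5:**
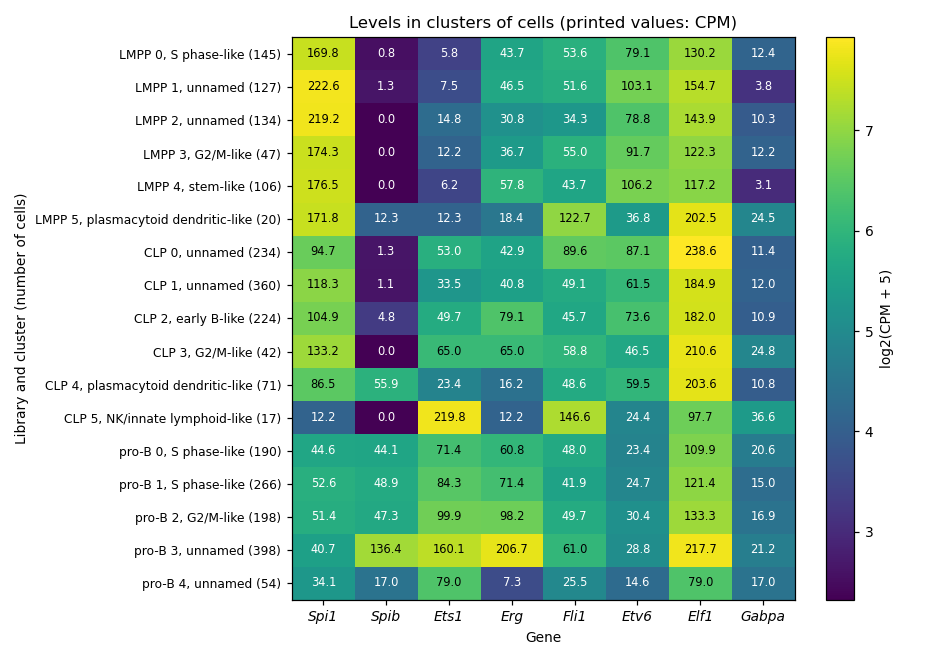
Levels of the 8 genes in all clusters of cells, rows by library with cluster name and number of cells, colour by log2(CPM + 5) and printed values in CPM. Spi1 has 170 to 223 CPM in LMPP clusters, 86.5 to 133 CPM in CLP clusters apart from the NK/innate lymphoid-like one (12.2 CPM, 1 UMI), and 34.1 to 52.6 CPM in pro-B clusters. Ets1 reaches 220 CPM in the NK/innate lymphoid-like CLP cluster of 17 cells, Spib 55.9 CPM in the dendritic-like CLP cluster, and Erg 207 CPM in pro-B cluster 3.

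Over the same 15 clusters, Pearson's r of log2(CPM + 5) was used to describe likeness among 5811 genes; the clusters share 3 libraries and their depths, so r also holds the differences between libraries. Spi1 and Etv6 had r = 0.91, Spi1 and Ets1 −0.87, and Spi1 and Spib −0.84. The genes most like Spi1 were Hoxa9 (r = 0.99), Ctla2a (0.97) and Cd34 (0.97). Those most like Ets1 were Ebf1 (0.97), Arl5c (0.96) and Mzb1 (0.95), and those most like Spib were Atp1b1 (0.96), Capza1 (0.94) and Snap29 (0.94). Erg had no equally close match, with Nipbl (0.89), Dusp6 (0.88) and H2-Q4 (0.88) in front. By rank Atp1b1 stood at 0.70 with Spib, and Dusp6 and H2-Q4 at 0.61 and 0.73 with Erg.

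Whether members occurred in the same cells was described for all 28 pairs. In thinned cells the share with both genes of a pair was compared with the product of the single shares, and the product lay inside the counting interval for 28 pairs in LMPP, all 28 in CLP and 27 among pro-B cells. The pair outside it was Spi1 with Ets1 in pro-B, found together in 11 of 1070 cells (1.03%, 0.514 to 1.83) where the product gives 20.0. With another random thinning there were 16 cells where the product gives 19.2, inside the interval, so this value does not hold. That thinning put other pairs outside instead, Erg with Elf1 in 73 pro-B cells (product 53.4) and Erg with Etv6 in 4 CLP (product 10.3), and thinning to 1000 UMIs put Spib with Gabpa outside in 2 CLP (product 0.0844). No pair was outside under more than 1 of the 3 thinnings. Where the product gives few cells, it lies inside the interval even at 0 cells with both, so such pairs could not show a shortage. In LMPP, 0 cells with both has an upper bound of 0.642%, above the product of 0.178% for Ets1 with Erg. For such pairs a product inside the interval does not decide whether the 2 genes avoid each other.

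Other genes tied to the family were taken as lists, some of which share genes, and counted by the same 2-fold rule. Their counts stand beside the shares of all genes called: 4.36% higher and 3.59% lower in CLP against LMPP, 13.9% and 13.6% in pro-B against CLP, and 14.7% each way in pro-B against LMPP. The lists are small, so nothing particular to a list is read from its count. Of 18 other ETS genes, 8 reached 10 CPM in some library: Elf2, Elf4, Elk3, Elk4, Erf, Etv1, Etv3 and Etv5. In CLP against LMPP 1 of the 8 tested was higher (Etv1, 10.2 CPM in CLP, 3.74 CPM in LMPP) and 0 lower. In pro-B against CLP 0 of 8 tested were higher (13.9% of all genes) and 4 lower (13.6% of all genes): Elk3 (43.3 CPM in pro-B, 96.4 CPM in CLP), Erf (5.84 and 13.2 CPM), Etv1 (0.950 and 10.2 CPM) and Etv5 (3.39 and 11.7 CPM). In pro-B against LMPP 6 were tested, of which Elk4, a serum response factor partner, was higher (87.3 CPM in pro-B, 37.9 CPM in LMPP) and Erf and Etv3 were lower. Elf2 and Elf4 were within 2-fold throughout, at 46.8 to 51.4 CPM and 20.5 to 25.9 CPM. The median log2 ratio of this list was 0.13, −1.06 and −0.88 in these 3 comparisons, beside −0.01, −0.08 and −0.06 over all genes with 10 or more UMIs. Gabpb1 and Gabpb2, whose proteins pair with that of Gabpa, were within 2-fold, with medians of −0.05, 0.66 and 0.60.

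Of the 5 partners of Erg and Fli1 in the stem cell set, 0 were higher in any comparison. Lower were 3 of 5 tested in CLP against LMPP (3.59% of all genes), 1 of 3 tested in pro-B against CLP (13.6%) and 3 of 5 tested in pro-B against LMPP (14.7%), with medians of −1.71, −1.11 and −3.80. Lmo2, a bridging protein of the set, had 737 CPM in LMPP, 194 CPM in CLP and 38.3 CPM in pro-B. Tal1 had 24.7, 7.54 and 1.76 CPM, and Gata2 25.2 CPM, 0.838 CPM and 0 UMIs. Lyl1 (214, 161 and 149 CPM) and Runx1 (40.9, 57.8 and 53.2 CPM) were within 2-fold. Erg was thus higher in pro-B cells, and Fli1 within 2-fold, where Lmo2 and Tal1 were at their lowest.

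Of 11 partners and antagonists of Spi1, 8 were tested in CLP against LMPP, with 1 higher (4.36% of all genes) and 2 lower (3.59%). In pro-B against CLP 7 were tested, with 1 higher (13.9%) and 4 lower (13.6%), and in pro-B against LMPP 9, with 1 higher and 3 lower (14.7% each way). The medians were 0.54, −1.17 and −0.56. Irf8, which binds DNA together with PU.1, had 125 CPM in LMPP, 461 CPM in CLP and 153 CPM in pro-B, while Irf4, which can take the same place, had 1.25, 4.02 and 33.0 CPM. Irf8 moved with the dendritic-like clusters, for which it is also a marker: in CLP that cluster had 2342 CPM of it, and in LMPP 2062 CPM. When these cells and the innate-like ones are left out, Irf8 had 43.1 CPM in LMPP, 271 CPM in CLP and 153 CPM in pro-B. Its log2 ratio was then 2.65 instead of 1.88 for CLP over LMPP, −0.82 instead of −1.59 for pro-B over CLP, under 2-fold, and 1.83 instead of 0.29 for pro-B over LMPP, past 2-fold. Ikzf1 (129, 207 and 89.0 CPM) and Jun (202, 300.3 and 134 CPM) peaked in CLP. Of 12 myeloid genes that PU.1 is known to control, 0 were higher in any comparison. Lower were 2 of 6 tested in CLP against LMPP (3.59% of all genes), 3 of 5 in pro-B against CLP (13.6%) and 4 of 6 in pro-B against LMPP (14.7%), with medians of −0.31, −2.25 and −2.17. They did not all follow Spi1: Mpo had 74.2 CPM in LMPP, 71.4 CPM in CLP and 0 UMIs in pro-B, Ncf1 65.0, 57.3 and 1.49 CPM, Lyz2 156, 76.6 and 82.3 CPM, and Csf3r 52.8, 6.20 and 0.136 CPM. All 9 lymphoid and B lineage genes controlled by PU.1 or Spi-B were tested throughout. In CLP against LMPP 3 were higher (4.36% of all genes) and 0 lower (3.59%), in pro-B against CLP 3 higher (13.9%) and 2 lower (13.6%), and in pro-B against LMPP 4 higher and 1 lower (14.7% each way), with medians of 0.65, −0.03 and 0.63. Blnk, an adaptor of B cell receptor signalling, had 9.22 CPM in LMPP, 134 CPM in CLP and 582 CPM in pro-B, and Cd79b, a signalling chain of that receptor, 29.6, 53.0 and 842 CPM. All 6 partners and B lineage genes of Ets1 were tested too, and 0 were lower. Higher were 3 in CLP against LMPP (4.36% of all genes), 3 in pro-B against CLP (13.9%) and 4 in pro-B against LMPP (14.7%), with medians of 2.68, 1.23 and 4.51, among them Pax5 (0 UMIs, 17.3 CPM and 103 CPM) and Cd79a (1.49, 92.2 and 1851 CPM), a gene whose promoter Ets1 and Pax5 bind together.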

How the data were processed

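The deposited values are raw counts of UMIs by gene and barcode for 3 libraries (LMPP, CLP and pro-B). The submitters' processing notes name Cell Ranger and mm10. The version, the annotation and how cells were called are not given in these sources. Cultured iLS cells named in the labels, and immunoglobulin genes, were not analysed here. Groups come from the labels' titles.

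Of 599, 979 and 1123 barcodes, those with at least 500 genes and no more than 10% of UMIs from mitochondrial genes entered. UMIs were summed per library, group of cells or cluster and scaled to CPM. Levels have exact Poisson intervals, ratios exact conditional intervals and shares Clopper-Pearson intervals, all 95%; UMIs limit amplification copies, and the intervals cover counting error only. A gene at 0 UMIs was set to 3 UMIs in ratios, which is 0.747, 0.503 or 0.407 CPM by library in the order above. A fold needed 10 CPM in the higher library. Shares were taken after thinning to 2000 UMIs, leaving out 6, 40 and 36 cells. Clusters used 2000 variable genes without ETS genes, 20 components, 15 neighbours and Leiden resolution 0.5. Scrublet called 30, 14 and 2 cells as doublets, kept in the main values. The members, lists and groups were chosen with earlier results of these data known. Named are all 8 members, every other ETS, GABP and stem cell set gene with 10 CPM in any library, the 4 highest of each other list and the 3 most alike genes, the last leaving out immunoglobulin genes and unnamed gene models; Irf4, Flt3 as a sort marker, Ets2 and the genes that lead a cluster, mark a cell type or set a group were added after their values were seen. Promoters were matched by symbol and positions by Ensembl ID. The 2-fold calls, the ratio intervals and the thinning were tested on simulated data, and the other steps were not. Software was scanpy 1.11.5, with igraph 0.11.9, anndata 0.12.19, pandas 2.3.3, matplotlib 3.10.9, scikit-learn 1.9.0, SciPy 1.17.1 and NumPy 2.4.6 under Python 3.11.15.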

Additional observations from a re-analysis of the deposited data

How the results depend on the processing

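No paired analysis was possible because each population was 1 library, and for the same reason no replicate could be left out. Counts of members past 2-fold changed with the settings, among other cases as follows. For pro-B over CLP, 1 gene instead of 2 was higher without ribosomal and mitochondrial genes in the total, and 1 at 4-fold, where 0 were lower. For pro-B over LMPP 1 was lower at 4-fold, and Erg, 2.13-fold higher, was no longer called. Erg joined the higher genes for pro-B over CLP in cells with few cycle transcripts (log2 ratio 1.72) and when every cell weighs the same. Gabpa joined those for pro-B over LMPP in cells with few cycle transcripts (1.74). For CLP over LMPP, 2 instead of 1 were higher in cells with few cycle transcripts (Gabpa added). Both of these Gabpa additions rest on few UMIs, 15 in pro-B, 21 in CLP and 8 in LMPP. With no minimum level 2 were higher for CLP over LMPP (Spib added), and at 50 CPM 0 were. The median log2 ratio of the 8 genes for pro-B over LMPP was 0.11 without ribosomal and mitochondrial genes and 1.16 in cells with few cycle transcripts. That scaling moves every log2 ratio by −0.03 (CLP over LMPP), −0.31 (pro-B over CLP) or −0.34 (pro-B over LMPP), and size factors from the median of ratios by 0.01, −0.07 or −0.06. Over all genes it turns 1097 higher and 1069 lower into 656 and 1590 for pro-B over CLP, and 1172 and 1172 into 696 and 1786 for pro-B over LMPP. All-gene counts for CLP over LMPP, 338 higher and 278 lower, were 551 and 537 in cells with few cycle transcripts. Between 4-fold and no minimum level, counts of higher genes ran from 84 to 1148, 353 to 1736 and 440 to 1801, and of lower genes from 69 to 1180, 396 to 2996 and 477 to 3066, in the 3 comparisons; at 50 CPM they were 121, 625 and 645 higher and 70, 296 and 303 lower.

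Elf1 for pro-B over CLP was −0.55 in all cells and 0.0017 in cells with few cycle transcripts, where it was −0.64 per cell. In pro-B cells with G2/M over few cycle transcripts, the log2 ratio per cell was 0.054 for Erg, 0.17 for Spib, 0.91 for Ets1 and 0.67 for Elf1, against negative values as CPM; the group with few holds fewer UMIs per cell. The per-cell values, the Irf8 levels without dendritic-like and innate-like clusters and the other thinnings of pairs were chosen after seeing the data, as was leaving out the pro-B cluster led by Mt1, which gave 80.2 CPM of Erg in cells with G2/M transcripts. Depth limits Spib and Ets1 in LMPP, with 4 and 36 UMIs.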
